A study of Homo sapiens with 6 samples.

Results

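Chromosome 9 was described by every 20 kb bin that was present in the compartment tracks of both DKO1 and HCT116 cells, and by every domain listed on it in either line. The chromosome was chosen on the PC1 and domain values of these same maps, so its values are given as a description and support nothing beyond it. The rule gave 5569 of the 140474 bins shared over the whole series, 81 of 1823 domains in DKO1 and 180 of 4289 domains in HCT116. DKO1 is a clonal derivative of HCT116 in which the genes of the DNA methyltransferases DNMT1 and DNMT3B were disrupted. HCT116 is an established human colorectal cancer line and carries both genes, labelled WT here. Both were grown in the same serum-supplemented medium. Hi-C, in which cross-linked chromatin is cut, ligated and sequenced so that joined fragments report contacts, was made from 3 libraries of each line. All 3 libraries of a line name the same processed files and were taken as pooled, so each line has 1 track and 1 domain list. No replicate spread, test or p-value could be had, and each difference is one between these maps. The depth of the maps is unknown, because the files used hold no read or contact counts.

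Chromatin of a chromosome is known to separate into compartment A, which is open, gene-rich and early replicating, and compartment B, which is compact and often lies at the nuclear lamina. The first principal component of the contact map, PC1, is positive in A and negative in B. Within compartments lie topologically associating domains, stretches that contact themselves more than their surroundings. Chromosome 9 is known for a very large block of satellite heterochromatin on the long arm next to its centromere, flanked by segmental duplications in which short reads map poorly. Chromosomes 1 and 16 carry the other large blocks of this kind. Inherited loss of DNMT3B function causes the ICF syndrome, in which the satellite DNA of chromosomes 1, 9 and 16 is undermethylated and these blocks decondense in lymphocytes. The satellite block itself has no bins in these tracks, so only its flanks could be examined.

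The shared bins covered 111.38 Mb, between positions 1 and 141140000 of the hg19 build. The longest stretch without a bin ran from 47240001 to 66260000, which is 19.02 Mb, and was used to split the arms. The short arm, 9p, held 2010 bins and the long arm, 9q, held 3559. A further 16 breaks of over 100 kb lay around this gap, all between 38 and 71 Mb, and elsewhere the bins were close to continuous. The deposited PC1 was scaled on the chromosome to mean 0 and SD 1 in both lines. Its sign was taken as deposited, since gene density, which usually sets it, could not be checked here. Differences between lines therefore cancel over the chromosome by construction, and a block that is lower in DKO1 is matched by others that are higher. Values of PC1 below are in these SD units, and differences are DKO1 minus HCT116.

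By the sign of the deposited PC1, more of chromosome 9 was in compartment B in DKO1 than in HCT116. Compartment A made up 50.5% of its bins in DKO1 and 56.9% in HCT116. Bins in B in DKO1 that HCT116 had in A, called A-to-B bins, numbered 605, or 10.9%, beside 8.84% on the 21 other autosomes together. Bins in A in DKO1 that HCT116 had in B, called B-to-A bins, numbered 248, or 4.45%, beside 4.40% elsewhere. In either direction 15.3% of bins switched, beside 13.2%. Chromosome 9 ranked 7 of 22 for the switch from A to B, between chromosomes 8 (11.5%) and 20 (9.98%), and 8 of 22 for the switch from B to A. With the chromosome median of each line subtracted, both directions came to 7.27% by construction, so the excess of A-to-B bins depends on where 0 lies. These shares lie near the background of the other autosomes, and none of them sets the chromosome apart.

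The 2 tracks were less alike on chromosome 9 than on most autosomes. Pearson's r across its 5569 bins was 0.82, with a rho of 0.83 by Spearman's method, where the median r of the other autosomes was 0.92. Only chromosomes 7 (0.77), 6 (0.76) and 13 (0.62) had a lower r. The bins are neighbours on 1 chromosome and are not independent, so no p-value belongs to these correlations. The SD of the difference over bins was 0.59, the fourth highest of 22, beside a median of 0.41 elsewhere. The median step of PC1 between neighbouring bins was 0.102 in DKO1, the highest of the autosomes beside 0.101 on chromosome 6, and 0.076 in HCT116, the third highest. The part of this roughness in the differences was not tested.

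**Figure D1:**
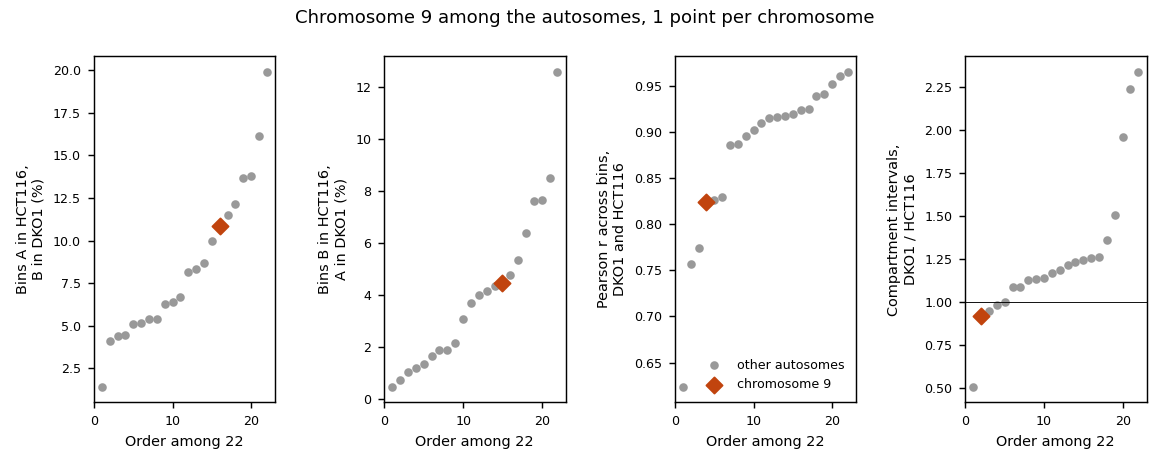
Chromosome 9 (diamond) and the 21 other autosomes (grey points), each panel ordered from its lowest to its highest value. The panels give the share of A-to-B bins, the share of B-to-A bins, the Pearson r across bins, and the number of compartment intervals in DKO1 over that in HCT116, where the line marks a ratio of 1. Chromosome 9 lies at 10.9% and 4.45%, within the range of the others, at the fourth lowest r of 0.82, and at the second lowest interval ratio of 0.92. After a median over 5 bins, which is not drawn, it had 146 intervals in both lines, a ratio of 1.

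Switched bins of chromosome 9 differed between the directions in how far the lines lay apart. A-to-B bins had a median PC1 of -0.51 in DKO1 and 0.30 in HCT116, with a median difference of -0.91. On the other autosomes the same class had medians of -0.28 and 0.28 and a difference of -0.63. An absolute PC1 of at least 0.5 in both lines was reached by 43 of the 605 A-to-B bins, or 7.11%, beside 2.92% elsewhere. Of these 43, 41 lay on the long arm and 2 on the short arm. Among the 248 B-to-A bins only 2 reached it, or 0.81%, beside 6.30% elsewhere. The B-to-A bins had medians of 0.26 in DKO1 and -0.35 in HCT116.

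The arms differed in their compartment content and in how finely it was divided. On 9p compartment A made up 39.8% of bins in DKO1 and 49.8% in HCT116, with 14.2% of bins switched from A to B and 4.18% from B to A. With the chromosome median subtracted the 9p shares were 6.42% and 6.57%, so the excess on this arm also rests on the deposited zero. On 9q the shares of A were 56.5% in DKO1 and 60.9% in HCT116, with 8.99% and 4.61% switched. Mean PC1 on 9p was -0.15 in DKO1 and -0.059 in HCT116. On 9q it was 0.085 in DKO1 and 0.033 in HCT116. The correlation was the same on both arms, at 0.83. Among 34 arms of 17 autosomes that could be split in this way, 9p ranked 7 and 9q ranked 13 for the share of A-to-B bins, and the median over the 32 arms of other chromosomes was 6.44%.

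The short arm was divided into far fewer compartment intervals in DKO1 than in HCT116. Consecutive bins of 1 sign formed 65 intervals on 9p in DKO1 and 121 in HCT116, a ratio of 0.54, the lowest of the 34 arms. The median ratio over the 32 other arms was 1.28. The order held after a median over 5 bins, with 45 intervals in DKO1 and 78 in HCT116, a ratio of 0.58 and again the lowest of 34. The difference lay mainly in the block from 20 to 35 Mb, which without this median had 18 intervals in DKO1 and 78 in HCT116. From 0 to 20 Mb the counts were alike, at 34 in DKO1 and 32 in HCT116. All these counts use the deposited zero. The long arm went the other way, with 147 intervals in DKO1 and 110 in HCT116, a ratio of 1.34. An absolute PC1 under 0.25 was found in 10.4% of the 9p bins in DKO1 and in 23.2% of them in HCT116, where this was the second highest share of the 34 arms. With 1 map per line this difference has no replicate check.

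In windows of 5 Mb, the difference between the lines had the same sign over many neighbouring windows. Of 25 windows with at least 50 bins, 5 had a mean PC1 more than 0.3 lower in DKO1 and 5 more than 0.3 higher, or 20% each. On the other autosomes 14.3% of 531 windows were lower and 13.9% were higher by this margin. From the short-arm telomere the difference was near 0 over 10 Mb, positive from 10 to 20 Mb, negative from 20 to 35 Mb, and slightly positive up to the gap. On the long arm it was positive in all 8 windows from 65 to 105 Mb, negative in all 5 from 105 to 130 Mb, and positive in the 3 at the end. Differences between window means made up 43.7% of the variance of the bin differences, beside a median of 31.3% on the other autosomes, and chromosome 9 ranked 7 of 22. Within windows the tracks were less alike than on most autosomes. The median r inside a window was 0.85, beside 0.89 elsewhere, and r across bins after removal of the window means was 0.85, rank 18 of 22, beside a median of 0.907 on the other autosomes. A share of 64% of the windows had an r of at least 0.8, beside 74.2% elsewhere.

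**Figure D2:**
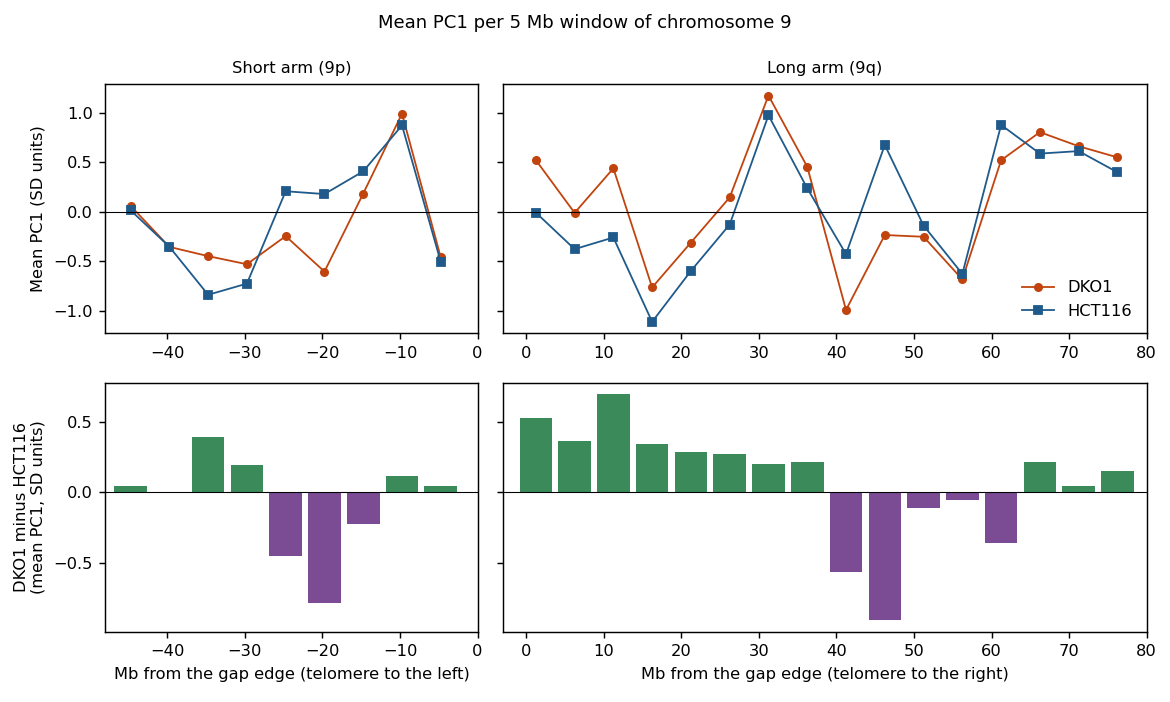
Mean PC1 per 5 Mb window on the short arm (left) and the long arm (right), by distance in Mb of the window centre from the edge of the gap. The upper panels show DKO1 (circles) and HCT116 (squares), and the lower panels the difference DKO1 minus HCT116. The largest negative bars are -0.78 on the short arm and -0.91 on the long arm, and the highest positive bar is 0.70, in the window from 75 to 80 Mb. Only windows with at least 50 shared bins are drawn.

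In the stretches with the largest differences, switches went mostly with the sign of the difference. An A-to-B bin is by definition lower in DKO1, so this is partly built in. Single windows could go the other way. From 35 to 40 Mb and from 95 to 100 Mb the difference was positive, at 0.12 and 0.20. All switched bins there, 7 and 9, went from A to B. In the 3 windows from 20 to 35 Mb, 30.8% of bins switched from A to B and 0 of 750 from B to A, and this stretch held 38.2% of all A-to-B bins of the chromosome in 13.5% of its bins. The 5 windows from 105 to 130 Mb held another 46.1%, in 22.4% of the bins. The 8 windows from 65 to 105 Mb, in contrast, held 53.2% of the B-to-A bins and 5.95% of the A-to-B bins. All these shares use the deposited zero. With the chromosome median subtracted, the A-to-B share of the whole short arm was 6.42%, in place of 14.2%. How the stretches share the switched bins in that setting was not tested. One direction made up at least 90% of the switches in 11 of the 20 windows that had at least 10 switched bins, or 55%. This is no more than on the other autosomes, where the share was 55.2% of 397 windows.

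**Figure D3:**
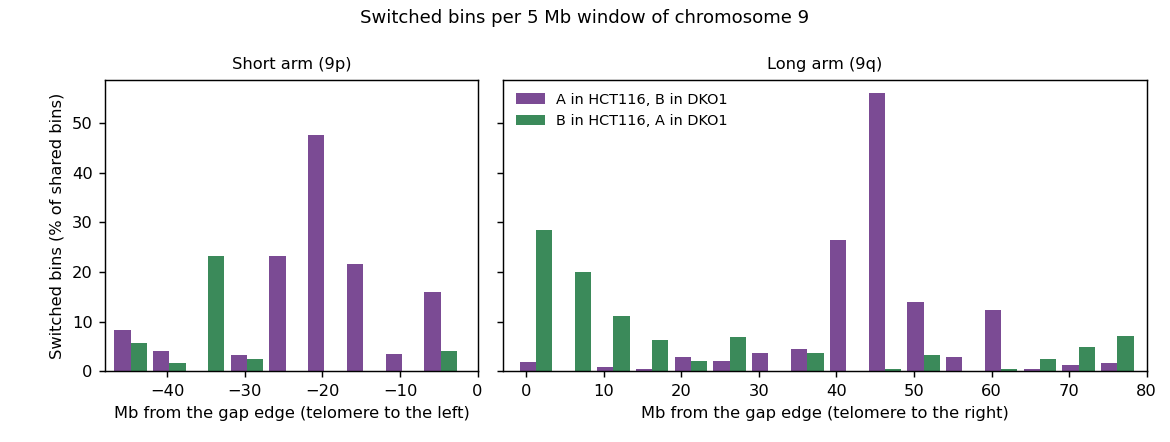
Share of shared bins that switched in each 5 Mb window, by distance from the gap in Mb, on the short arm (left) and the long arm (right). The left bar of a pair gives A-to-B bins and the right bar B-to-A bins. The tallest left bars are 47.6% on the short arm and 56.0% on the long arm, and the tallest right bars are 23.2% and 28.6%.

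The block from 20 to 35 Mb of the short arm held a long stretch that was compartment B in DKO1 and close to 0 in HCT116. In the window from 25 to 30 Mb all 250 bins were lower in DKO1, with a mean PC1 of -0.60 in DKO1 and 0.18 in HCT116. By the deposited zero, 12.8% of bins here were A in DKO1 and 60.4% in HCT116, and 47.6% switched from A to B with 0 switching back. With a 10 Mb running mean subtracted, which removes broad differences by construction, 10.8% of these bins switched from A to B and 5.20% from B to A. Between 22 and 33 Mb, limits chosen after the values were seen, 8.73% of bins lay within 0.25 of 0 in DKO1, against 57.5% in HCT116. The same 550 bins formed 13 compartment intervals in DKO1 and 73 in HCT116, or 11 and 43 after a median over 5 bins. Shape was partly kept, with an r of 0.84 between the lines in this stretch, while its mean was 0.71 lower in DKO1.

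One interval shows this pattern in full. Positions 27580001 to 32360000, a length of 4.78 Mb, were an unbroken B interval in DKO1, behind only 2 longer ones of that line on the chromosome. In DKO1 its PC1 lay between -1.31 and -0.003, with a mean of -0.79. The same bins in HCT116 lay between -0.58 and 0.90, with a mean of -0.015, and were cut into 45 intervals, 51.0% of bins being A. No domain of either line touched it. A neighbouring stretch at 22480001 to 26320000, free of domains in both lines, averaged -0.92 in DKO1 and -0.16 in HCT116.

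The A intervals of DKO1 inside this block were A in HCT116 as well. The island at 21180001 to 22300000 averaged 1.37 in DKO1 and 1.25 in HCT116. At 26720001 to 27060000 the means were 0.71 in DKO1 and 1.096 in HCT116, and at 32360001 to 32640000 they were 0.53 and 0.85. The short interval at 27380001 to 27580000 averaged 0.34 in DKO1 and 1.12 in HCT116, and the one at 27100001 to 27200000 averaged 0.11 and 1.21. These last 2 were thus lower in DKO1 by about as much as the B chromatin beside them, or more. From 32900001 to 38680000 both lines were A throughout, and this was the longest A interval of DKO1, with a mean PC1 of 1.23 in DKO1 and 0.96 in HCT116.

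**Figure D4:**
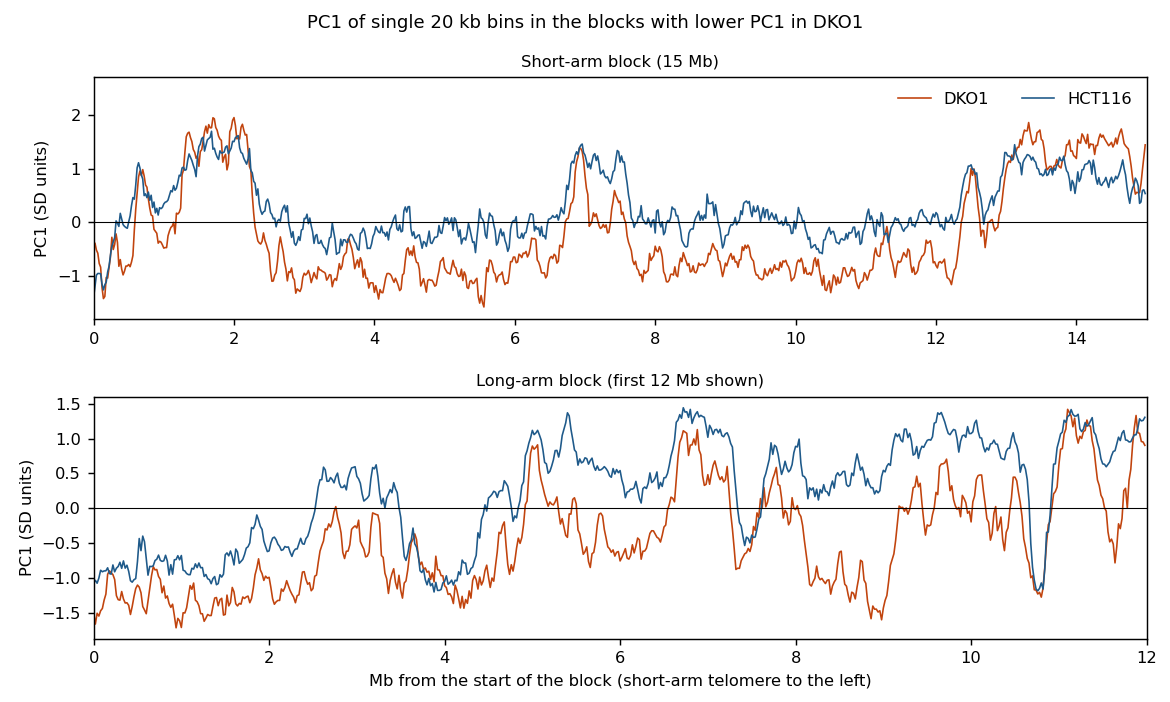
PC1 of single 20 kb bins in DKO1 and HCT116, by distance in Mb from the start of each block, for the 15 Mb short-arm block (top) and the first 12 Mb of the long-arm block (bottom). In the top panel the DKO1 line runs well below 0 between the A islands, where the HCT116 line runs close to 0, and both are positive in the islands. In the bottom panel the DKO1 line lies below the HCT116 line in 95.4% of bins of the first 10 Mb. There r between the lines is 0.80, and from 110 to 115 Mb it is 0.68.

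The rest of the short arm differed less or the other way. The window from 10 to 15 Mb was less fully B in DKO1 than in HCT116, with a mean PC1 of -0.45 in DKO1 and -0.84 in HCT116. There 33.6% of bins were A in DKO1 and 10.4% in HCT116, 23.2% switched from B to A, and 0 of 250 switched from A to B. With the running mean subtracted these shares were 12.8% and 1.60%. The interval at 7240001 to 12700000, which reaches into this window, was B in every bin of both lines, with means of -1.24 in DKO1 and -1.28 in HCT116. This was the longest B interval of DKO1 and, with slightly wider limits, of HCT116. The window from 5 to 10 Mb had an r of 0.97 and a mean difference of -0.001.

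Both flanks of the heterochromatin gap were patchy, and the long-arm side was higher in DKO1. In the 5 Mb of shared bins nearest the gap on the long arm, spread over 8.54 Mb of sequence, mean PC1 was 0.067 in DKO1 and -0.35 in HCT116, with 22.8% of bins switched from B to A and 0.40% from A to B. On the short-arm side, the 5 Mb spread over 12.04 Mb averaged 0.68 in DKO1 and 0.60 in HCT116, but the sign of the difference of 0.082 turned with the length taken, to -0.20 over 2 Mb and -0.044 over 10 Mb. The window from 65 to 70 Mb, which held 56 bins, averaged 0.52 in DKO1 and -0.006 in HCT116, and 28.6% of its bins switched from B to A. In the last window before the gap, from 45 to 50 Mb, the 8 bins present were A in both lines, with means of 0.43 in DKO1 and 0.44 in HCT116. Fragments separated by breaks of over 100 kb numbered 8 on each side, of 20 to 520 kb on the short arm and 40 to 360 kb on the long arm, and DKO1 was higher in 5 of those on the short arm and 6 of those on the long arm. Reads from segmental duplications are hard to place, and the part of mapping in these values was not tested.

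Chromosomes 1 and 16 did not give the same picture on the same side. On the long-arm side of chromosome 1, next to its block, 5 Mb of shared bins averaged 0.25 in DKO1 and 0.20 in HCT116, a difference of 0.051. On that side of chromosome 16 the means were 0.011 in DKO1 and 0.081 in HCT116, a difference of -0.070. The long-arm difference of 0.42 on chromosome 9 was larger than either, and it stayed at 0.40 over 2 Mb and 0.56 over 10 Mb. It was part of a longer stretch, from 65 to 105 Mb, with a higher mean in DKO1 in every window. The short-arm sides of chromosomes 1 and 16 were the ones higher in DKO1, by 0.28 and 0.47. Over 2 Mb these differences were 0.33 and 0.90, and over 10 Mb 0.23 and 0.24. HCT116 is known to carry a rearranged chromosome 16, and whether this touches its values was not tested.

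Every 5 Mb window of the proximal long arm from 65 to 105 Mb had a higher mean PC1 in DKO1, while 25.5% of its single bins were lower in DKO1 and 9.57% switched in either direction. The largest window difference of the chromosome in this direction was 0.70 from 75 to 80 Mb, with means of 0.44 in DKO1 and -0.26 in HCT116. In this window 11.2% of bins switched from B to A. Its difference was 0.21 with the running mean subtracted. In the window from 80 to 85 Mb, PC1 averaged -0.76 in DKO1 and -1.11 in HCT116, and 6.40% of bins switched from B to A. The B interval of HCT116 at 80960001 to 86200000, its second longest, averaged -0.89 in DKO1 and -1.36 in HCT116, and 6.11% of its bins were A in DKO1. The window from 95 to 100 Mb was A in 96.4% of bins in DKO1 and in 100% in HCT116, and just 3.6% switched. The longest A interval of HCT116 on the chromosome, at 94440001 to 102340000, kept 95.9% of its bins in A and averaged 1.16 in DKO1 and 0.95 in HCT116.

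The block from 105 to 115 Mb of the long arm was lower in DKO1 in nearly every bin. In the window from 110 to 115 Mb, mean PC1 was -0.23 in DKO1 and 0.68 in HCT116, and 98% of bins were lower in DKO1. There compartment A made up 38.8% of bins in DKO1 and 94.4% in HCT116, and 56.0% of bins switched from A to B. With a 10 Mb running mean subtracted this share was 22.8%. As deposited, on the other autosomes 15 of 531 windows reached an A-to-B share of 50% or more, the highest being 76.8%, on chromosome 7. The window from 105 to 110 Mb averaged -0.99 in DKO1 and -0.43 in HCT116, and 2.0% of its bins were A in DKO1, against 28.4% in HCT116. The 110 to 115 Mb window was made of 24 compartment intervals in DKO1 and 3 in HCT116, the reverse of the short-arm block.

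Within this block, 2 runs of switched bins were over 1 Mb long, B in DKO1 and A in HCT116. The longer, at 113040001 to 114180000, had a PC1 between -1.60 and -0.076 in DKO1 and between 0.12 and 1.072 in HCT116, with means of -1.01 and 0.45. The other, at 110520001 to 111560000, averaged -0.50 in DKO1 and 0.46 in HCT116. With the running mean subtracted, the differences of -1.46 and -0.96 were -0.88 and -0.20. Both were new B intervals that did not touch B chromatin of HCT116, and they held 16 and 13 of the 43 A-to-B bins that passed 0.5 in both lines. An interval between them was A in both lines, with means of 0.61 in DKO1 and 1.17 in HCT116 at 111560001 to 112260000. A domain of nearly the same limits was listed inside the longer run in both lines, at 113160001 to 113400000 in DKO1 and 113200001 to 113400000 in HCT116.

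Farther out, the windows of the long arm differed in how far the lines lay apart. From 115 to 120 Mb 17.2% of bins switched, 14% from A to B, with means of -0.25 in DKO1 and -0.14 in HCT116. From 120 to 125 Mb the lines had an r of 0.99, mean PC1 was -0.68 in DKO1 and -0.63 in HCT116, and 2.80% of bins switched, the lowest share of the chromosome. The B interval at 119440001 to 123160000 was B in every bin of both lines, with means of -1.56 in DKO1 and -1.59 in HCT116. From 125 to 130 Mb PC1 averaged 0.52 in DKO1 and 0.88 in HCT116, and 12.4% of bins switched from A to B. The last stretch, from 130 Mb to the end, was almost all A, at 98.2% of bins in DKO1 and 95.1% in HCT116, with means of 0.72 and 0.58. Inside it r was 0.29, a value over a narrow range of PC1, the SD being 0.35 in DKO1 and 0.31 in HCT116. From 130 to 135 Mb 2.83% of bins switched.

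Runs of consecutive switched bins were mostly short. There were 109 runs from A to B and 78 from B to A, with medians of 60 and 40 kb. Of the A-to-B runs 12 reached 200 kb, 6 on each arm, or 10.8 per 100 Mb beside 11.7 on the other autosomes. From B to A 3 were this long, or 2.69 per 100 Mb beside 4.28, and after a median over 5 bins there were 7. The A-to-B runs after the pair described above measured 720 kb at 107780001 to 108500000, 580 kb at 29180001 to 29760000 and 340 kb at 28560001 to 28900000. Their mean differences were -0.88, -0.98 and -0.89, and with the running mean subtracted -0.42, -0.42 and -0.23. The run at 116540001 to 116740000, of 200 kb, had the second largest difference of these 12, with means of -0.38 in DKO1 and 0.83 in HCT116, and it lay inside a domain at 116440001 to 116840000 that both lists hold with identical limits.

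From B to A the longest run, at 72480001 to 72800000, measured 320 kb and averaged 0.25 in DKO1 and -0.56 in HCT116. Its difference of 0.80 was 0.23 with the running mean subtracted. It was touched by 2 adjoining domains in HCT116 and 0 in DKO1. The run at 68240001 to 68520000, among the fragments beside the gap, had the largest difference of the 3, 1.24, or 0.78 with the running mean subtracted, with means of 0.54 in DKO1 and -0.70 in HCT116. At 14780001 to 15040000, a run of 260 kb averaged 0.21 in DKO1 and -0.70 in HCT116 and lay in a domain of HCT116 that DKO1 lacked. The runs at 14060001 to 14240000 and 13160001 to 13320000, both under 200 kb, had differences of 0.82 and 1.007. New intervals made up all 3 of the B-to-A runs of at least 200 kb and 5 of the 12 A-to-B runs. On the other autosomes they made up 33 of 109 and 128 of 298. The run at 68240001 to 68520000 ends at a break in the bins, so its neighbour on that side could not be seen.

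Chromosome 9 had fewer domains in DKO1, and the shortfall was unequal between its arms. The lists held 81 domains in DKO1 and 180 in HCT116, and the DKO1 number was 45% of that in HCT116, rank 10 of 22 autosomes, where the median of the others was 42.4%. On the short arm 15 domains stood in DKO1 and 54 in HCT116, or 27.8%, rank 30 of 34 arms. The long arm held 65 in DKO1 and 126 in HCT116, or 51.6%, rank 5 of 34. The short arm minus the long arm, -23.8 percentage points, was the second widest difference of 17 chromosomes, after chromosome 4, where the short arm had the higher share. Domain length was alike, with medians of 280 kb in both lines and quartiles of 240 and 360 kb in DKO1 and 240 and 320 kb in HCT116.

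The domain map of the distal short arm was nearly empty in DKO1. Between 4760001 and 17520000, a stretch of 12.76 Mb, DKO1 listed 0 domains, and 14 domains of HCT116 touched it. Mean PC1 there was -0.37 in DKO1 and -0.52 in HCT116, so the stretch was not lower in DKO1. Inside it, HCT116 also listed no domain from 7600001 to 12680000. A second long stretch without DKO1 domains ran from 101760001 to 112320000, with 13 domains in HCT116 and means of -0.48 in DKO1 and -0.088 in HCT116. Stretches with at least 2 Mb of shared bins and no domain numbered 12 in DKO1, covering 65.3 Mb of bins, and 6 in HCT116, covering 27.5 Mb. Of the 25 windows, 4 had 0 domains in DKO1 and 1 in HCT116, or 16% and 4%, beside 22.8% and 3.77% on the other autosomes.

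**Figure D5:**
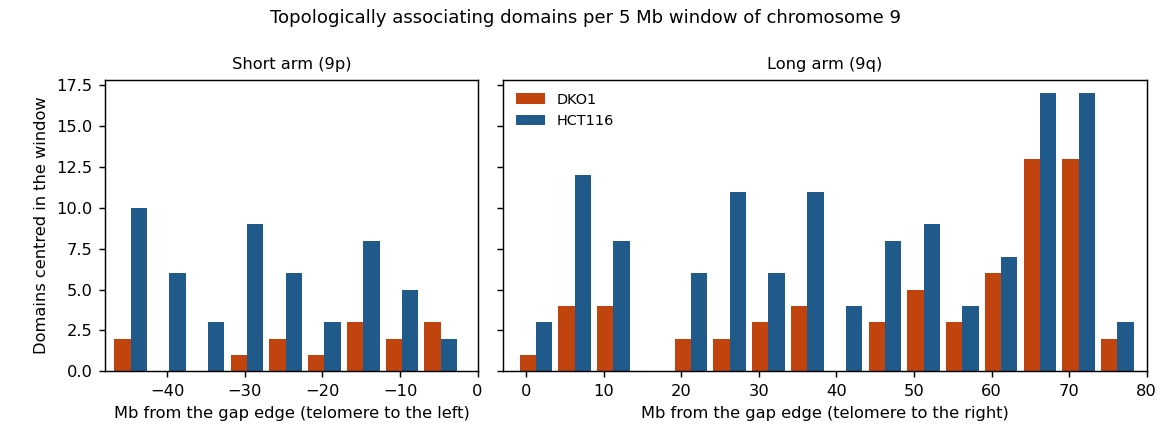
Domains centred in each 5 Mb window in DKO1 (left bar) and HCT116 (right bar), by distance from the gap in Mb, on the short arm (left) and the long arm (right). Entries over 2 Mb were left out. The 2 full windows from 130 to 140 Mb hold 13 domains each in DKO1 and 17 each in HCT116, and the windows from 5 to 15 Mb on the short arm hold 0 in DKO1 and 6 and 3 in HCT116.

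HCT116 domains of the distal long arm were found in DKO1 more often than those elsewhere on the chromosome. A domain was called matched where a domain of the other list overlapped it reciprocally by at least 80%. By this rule 70 domains were matched, which is 86.4% (95% Wilson interval 77.3 to 92.2) of the DKO1 domains and 38.9% (32.1 to 46.2) of the HCT116 domains, beside 83.8% and 35.7% on the other autosomes. The intervals cover counting error only. Beyond 130 Mb 28 domains stood in DKO1 and 37 in HCT116, and 26 of the 37, or 70.3%, were matched. In the rest of the chromosome 44 of 143 HCT116 domains were matched, or 30.8%. On the short arm the matched share of HCT116 domains was 16.7% (9.02 to 28.7), and on the long arm it was 48.4% (39.9 to 57.1). Of the 110 HCT116 domains with no match, 98 were not covered by any DKO1 domain over any part of their length.

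Matched domains lay mostly in compartment A. HCT116 domains in A were matched in 48.4% of 126 cases and those in B in 16% of 50, beside 44.7% and 17% on the other autosomes. Domain density by each line's own track was 11.6 per 10 Mb in A and 1.99 in B in DKO1, against 19.9 and 10.4 in HCT116. The other autosomes were alike, at 10.9 in A and 2.22 in B in DKO1, and 19.3 and 10.7 in HCT116. Domains whose mean PC1 differed by at most 0.3 between the lines were matched in 50% (39.7 to 60.3) of 86 cases. Those over 0.3 lower in DKO1 were matched in 31.0% (17.3 to 49.2) of 29, and those over 0.3 higher in 27.9% (18.2 to 40.2) of 61. These intervals overlap, which does not show that the shares are equal. On the other autosomes the shares were 39.0% (37.0 to 40.9), 27.9% (24.4 to 31.7) and 32.6% (29.8 to 35.7). The groups also differed in compartment, with a median HCT116 PC1 on chromosome 9 of 0.80, 0.78 and 0.24 in the same order.

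The 11 DKO1 domains without a match in HCT116 lay in 2 settings. In 5 of them, among bins present in full, the best reciprocal overlap with an HCT116 domain was 54.5% to 77.8%. These were at 4360001 to 4760000, 34680001 to 34920000, 79360001 to 79760000, 131880001 to 132240000 and 139200001 to 139640000, and their mean PC1 in DKO1 lay between 0.54 and 0.97. The other 6 lay beside or across the heterochromatin gap, with no HCT116 domain over them, and 4 of these had no shared bin. One, at 39080001 to 39280000, had bins over 60% of its length and averaged -0.98 in DKO1 and 0.037 in HCT116. The entry at 46880001 to 65640000, 18.76 Mb long, spans the gap, with bins over 0.43% of its length, and it was listed in DKO1 and not in HCT116. It is the only entry over 2 Mb on the chromosome and describes a stretch with almost no mapped sequence. On the other autosomes 13 entries of DKO1 and 17 of HCT116 were over 2 Mb, the longest being 21440 kb in both lists.

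Most boundaries of DKO1 were also boundaries of HCT116. Within 40 kb, 117 of 132 DKO1 boundaries, or 88.6% (82.1 to 93.0), were found in HCT116, beside 92.6% on the other autosomes, and 117 of 266 HCT116 boundaries, or 44.0% (38.1 to 50), were found in DKO1, beside 45.2%. Of the 15 boundaries listed in DKO1 only, 12 lay between 39 and 71 Mb, around the gap. The other 3 were at 34920000, 79760000 and 132240000, in A chromatin of both lines. HCT116 boundaries that were found in DKO1 had a median PC1 of 0.74 in DKO1 and 0.70 in HCT116, and those not found had medians of 0.30 in DKO1 and 0.29 in HCT116. Boundaries are the ends of the domains counted above and are not separate support.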

How the data were processed

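Per the labels' protocols, the Hi-C used the Arima kit with its pair of restriction enzymes, on 3 replicates of each line. Per the submitters' processing notes, HiC-Pro, HOMER 4.6 and hg19 (GRCh37) were used, with no roles stated. No domain caller or read filter is named in the sources used here. The deposited PC1 score stands in 20 kb bins, scaled by the authors per chromosome (from the values), and the deposited domain lists give starts and ends on a 40 kb grid.

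Bins were joined by chromosome and start. Arms were split at the longest stretch without shared bins, on other autosomes only where it was at least 1 Mb with at least 100 bins on both sides. Windows were counted from position 1. The regions named were the 3 most extreme windows by switched share and by difference, those beside the gap, the 5 longest and 3 most different runs per direction, the 3 longest intervals of each kind, unmatched DKO1 domains and entries over 2 Mb. Blocks and the intervals inside them were added after values were seen, and the chromosome and all rules were chosen with earlier results of these data known. Genes and sequences could not be placed, because the gene tables used were of another build. The run code was tested on a copy of the HCT116 track with the sign turned in planted runs, and recovered 20 of 20 over 5569 bins. No noise was added, so this checks the code and not recovery in the real pair of tracks. Python 3.11.15, numpy 2.4.6, pandas 2.3.3, scipy 1.17.1 and matplotlib 3.10.9 were used. Alternatives were other centrings, minima, overlaps, tolerances and window starts.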

Additional observations from a re-analysis of the deposited data

How the results depend on the processing

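No paired analysis was possible because each line has 1 pooled track and list, so that no replicate could be left out either. The A-to-B share of the chromosome, 10.9%, was 7.27% with the chromosome median subtracted, 11.9% with the arm mean subtracted, 9.82% with a 10 Mb running mean subtracted, 1.36% where bins had to pass 0.5 in both lines and 4.97% in runs of at least 200 kb. The B-to-A share, 4.45%, was 7.27%, 6.70%, 0.063% and 0.77% under the median, the running mean, the minimum and the runs. Median subtraction makes both shares equal by construction, so the excess of A-to-B bins depends on where 0 lies. By arm, it gave 6.42% and 6.57% on 9p and 7.75% and 7.67% on 9q, from A to B and from B to A. The minimum gave 0.19% and 0% on 9p and 1.94% and 0.095% on 9q. The running mean gave an r of 0.84, and Spearman's rho was 0.83. B-to-A runs of at least 200 kb numbered 7 after a median over 5 bins, in place of 3. The difference on the short-arm side of the gap turned sign, to -0.20 over 2 Mb and -0.044 over 10 Mb. Matched shares were 92.6% of DKO1 domains at an overlap of 50%, and 55.6% of DKO1 and 25% of HCT116 domains at 90%. With a tolerance of 0, boundaries were found for 68.9% in DKO1 and 34.2% in HCT116. All 11 named runs kept the sign of their mean difference. Subtracting the median or the arm mean shifts it by a constant smaller than the difference, so these settings could not turn it. Whether the bins of the runs still switched compartment was not tested. The running mean reduced the difference of 7 of the 11 runs by over 1.5 times, as at 113040001 (to -0.88) and 110520001 (to -0.20). The cause of these changes was not tested. Windows shifted by 2.5 Mb gave 6 with a switched share of at least 20%, in place of 9.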

Other observations

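The bins found in 1 track only were all near the heterochromatin gap. On chromosome 9 there were 13 bins in the DKO1 track alone and 3 in the HCT116 track alone, and all 16 lay between 38 and 71 Mb. Breaks in the shared bins between these positions summed to 29.6 Mb.

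Subtracting a 10 Mb running mean changed the correlation between the lines on chromosome 9 by 0.021, to 0.84, while the median change over the other autosomes was 0.002. The switched share became 16.5% of bins, the third highest of 22, in place of 15.3%. In the window from 110 to 115 Mb the A-to-B share was 22.8% after this subtraction, in place of 56.0%. This alternative on all autosomes was chosen after seeing the data.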
